A study of Mus musculus with 4 samples.

Results

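The replication-dependent histone genes are the 67 genes whose symbols start with Hist1h, Hist2h, Hist3h or Hist4 and that have a protein-coding transcript in the GENCODE M21 annotation. They were chosen by symbol and biotype, not by level, among 55536 mouse genes in the deposited tables, of which 21901 are protein-coding. By histone type they are 6 H1, 18 H2A, 18 H2B, 12 H3 and 13 H4 genes. By position, 54 lie in the Hist1 cluster on chromosome 13, 10 in the Hist2 cluster on chromosome 3, 2 in the Hist3 cluster on chromosome 11, and Hist4h4 lies alone on chromosome 6.

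The core histones H2A, H2B, H3 and H4 form the protein spool of the nucleosome, and the linker histone H1 binds where DNA enters and leaves it. Most of their supply is made in S phase from these clustered genes, when newly copied DNA has to be packed. Their messenger RNAs usually carry no poly(A) tail. They end just after a short hairpin, the histone stem-loop, which is bound by the protein Slbp and matured with the U7 small nuclear ribonucleoprotein. Histone variants such as H3.3 and H2A.Z are made outside S phase as well, from separate genes with ordinary polyadenylated messages.

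Total RNA of CD3 T cells from the spleen of male B6CASTF1/J mice, an F1 hybrid with C57BL/6 dams and CAST/EiJ sires, was sequenced at an age of 66 days. The 4 libraries form 1 group of primary cells for which the labels name no treatment, were each made from 300 ng of RNA, and are called libraries 1 to 4 after their replicate numbers. The labels give 4 biological samples with 1 donor identifier and do not say that each came from a separate animal, so every SD and p-value here measures the spread between these samples, which may be technical. With 1 group, the comparisons are between genes within a library and between the libraries.

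Estimated counts summed to 14584388 to 17335895 per library. All 10 T cell markers were at or above 1 TPM (transcript abundance per base of effective length, scaled to a fixed total) in every library, with a summed level of 3011 to 3118 TPM. No marker of another lineage was without a count. The 12 B cell markers summed to 151 to 162 TPM in libraries 1 to 3 and 348 TPM in library 4. The 10 erythroid markers summed to 16.7 to 64.0 TPM in libraries 1 to 3 and 636 TPM in library 4. The 12 neutrophil markers summed to 11.7 to 14.2 TPM in 3 libraries and 38 TPM in library 2. The 10 monocyte and macrophage markers (29.2 to 35.7 TPM) and the 8 natural killer markers (33.7 to 42.3 TPM) had no library outside these ranges.

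The stem-loop is the sequence feature that defines this class of messages, so it was read from the M21 transcripts as a check of the label. The search took the hairpin consensus of the class after the coding end: it starts with GG, ends with CC, has its usual T and A positions, and pairs 6 bases without a mismatch around a loop of 4. It was present in 46 of 67 members (68.7%), at a median of 34 bases after the coding end (lowest 24, highest 61). Among the other protein-coding genes 14 of 21834 held it (0.0641%), and H2afx was among them. Of the 21 members without a match, 15 have an annotated model that ends within 5 bases of the coding end, where no match could be found. The remaining 6 were Hist1h1a, Hist1h2bc, Hist1h2bq, Hist1h2br, Hist2h2be and Hist2h3b. Of these, Hist2h3b and Hist1h1a have only 40 and 51 bases after the coding end, so a hairpin beyond them could not be found. The model of Hist1h2bc has an intron. For Hist1h2bq and Hist1h2br the sequence after the coding end was that of models with an intron. These models held 1.06% and 0.24% of the level of their genes in the first quantification. The sites below are those of leading members of each type and of the main variants, 5′ to 3′ on the gene's strand in DNA letters, with the hairpin in capitals and 5 bases on each side.
Hist1h1c: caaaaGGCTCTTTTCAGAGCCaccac
Hist2h2aa2: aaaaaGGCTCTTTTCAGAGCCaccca
Hist2h2ac: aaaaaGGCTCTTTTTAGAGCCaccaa
Hist1h2bg: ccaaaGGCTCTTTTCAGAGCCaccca
Hist1h3a: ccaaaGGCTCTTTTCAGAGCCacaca
Hist1h3e: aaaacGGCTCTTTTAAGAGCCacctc
Hist1h4h: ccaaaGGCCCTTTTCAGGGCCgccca
Hist1h4j: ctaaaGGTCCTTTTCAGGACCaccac
Hist2h4: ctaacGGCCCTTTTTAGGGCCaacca

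The hairpins fell into 8 forms, and only H4 stood apart by type, sharing no form with the others. The form seen in Hist1h1c was shared by 26 members, 3 of H1, 10 of H2A, 8 of H2B and 5 of H3, and by no H4 gene. The form of Hist1h4h was found in 7 genes, all of them H4, and the other 5 H4 hairpins also differed from the common form in the stem. The form of Hist1h3e, with another loop base, was found in 6 genes of H1, H2B and H3. In mm10 coordinates the hairpin of Hist1h1c lies at chr13:23739512-23739527 on the plus strand, that of Hist1h4h at chr13:23531458-23531473 on the plus strand, and that of Hist2h2aa2 at chr3:96239784-96239799 on the minus strand. Of the transcripts kept here, 1 per member, those of 63 of 67 members have 1 exon. The exceptions are Hist1h2bc, Hist1h2be, Hist1h2bq and Hist1h2br, and exons of other transcripts of a member were not counted.

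Nearly the whole family was detected in these T cells by the first quantification. In every library 61 of 67 members (91.0%) were at or above 1 TPM, against 9726 of 21901 protein-coding genes (44.4%). At or above 10 TPM in every library were 33 members (49.3%), against 25.04% of protein-coding genes. Of the 61 members, 22 share most of their sequence with other genes, so their detection one by one is not settled. In the second quantification Hist1h2ao was at 0 TPM in libraries 1 to 3, Hist1h2ah in libraries 2 and 4, and Hist1h4n in library 2. Hist2h2aa1 and Hist1h2ad, not among the 61, were above 10 TPM in every library of that quantification. The median member had 13.1 TPM and the median protein-coding gene 0.480 TPM. The members summed to 1595, 1626, 1546 and 1740 TPM in libraries 1 to 4, a mean of 1627 ± 82.2 TPM (SD, n = 4), and took 0.107% ± 0.00433 of the counts. Library 4 was highest and library 3 lowest in this sum. Of the 61 members, 26 had their highest level in library 4 and 25 their lowest in library 3. The same counts over all genes were not made, so they cannot be called particular to the family. Members that share sequence are also not separate. Library 4 is also the one with the high B cell and erythroid marker levels, and the part of those cells in the histone sum was not tested. In bulk RNA, fewer cells that express a gene and less RNA per cell cannot be told apart.

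**Figure D1:**
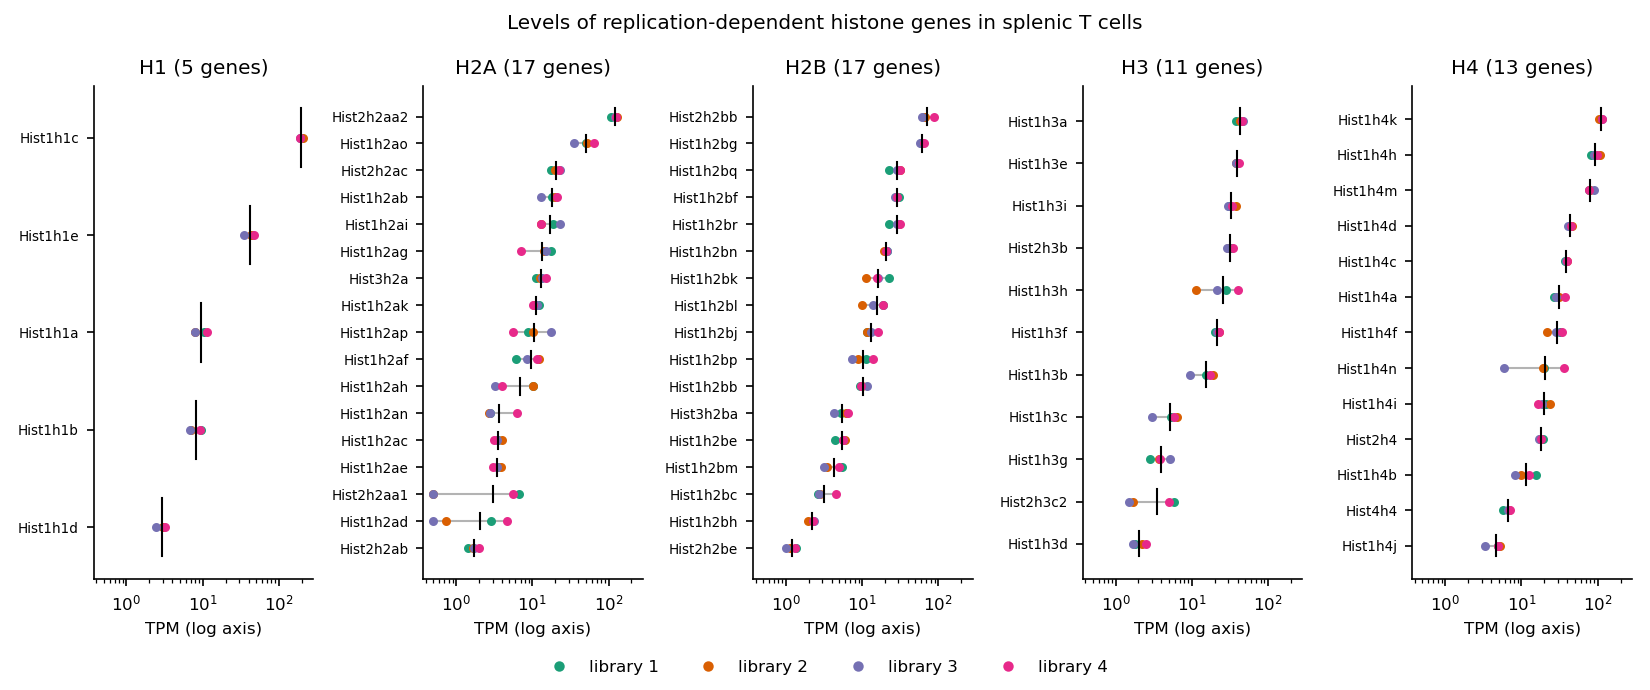
Levels of the 63 members with a mean of at least 1 TPM, in 5 panels by histone type, on log axes in TPM. Points are the 4 libraries and black bars the means, and values below 0.5 TPM (Hist2h2aa1 and Hist1h2ad) are drawn at 0.5. Hist1h1c leads at 189 to 209 TPM, while the widest spreads, relative to the mean, are those of Hist2h2aa1, Hist1h2ad, Hist2h3c2 and Hist1h4n.

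Summed by type, H4 led in both quantifications, and H3 was lowest in the first and H1 in the second. In the first, the 13 H4 genes held 508 ± 22.1 TPM (SD, n = 4), or 31.3% ± 0.32 of the family. H2B held 325 ± 26.9 TPM (20.0% ± 0.73), H2A 310 ± 11.99 TPM (19.1% ± 0.44), H1 259 ± 10.9 TPM (15.9% ± 0.74) and H3 224 ± 19.9 TPM (13.7% ± 0.58). H4 was the highest type and H3 the lowest in 4 of 4 libraries, and H1 lay between H3 and H2A in each. H2A and H2B did not hold 1 order: H2B was higher in libraries 1, 3 and 4 and lower in library 2. In the second quantification H1 (252 ± 19.7 TPM) lay below H3 (296 ± 37.3 TPM), and H2A (495 ± 21.5 TPM) above H2B (376 ± 38.7 TPM), with H4 at 595 ± 30.8 TPM. By estimated count in the first, which is not divided by length, the order differed: H1 took 37.7% ± 1.2 of the family's counts and H4 23.7% ± 0.21. When the length was taken only up to the stem-loop, H1 became the second type with 23.5% of the summed level. This length was used only for the 46 members with a match. The others kept their own length, counts were unchanged, and values were not rescaled to 1 total.

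**Figure D2:**
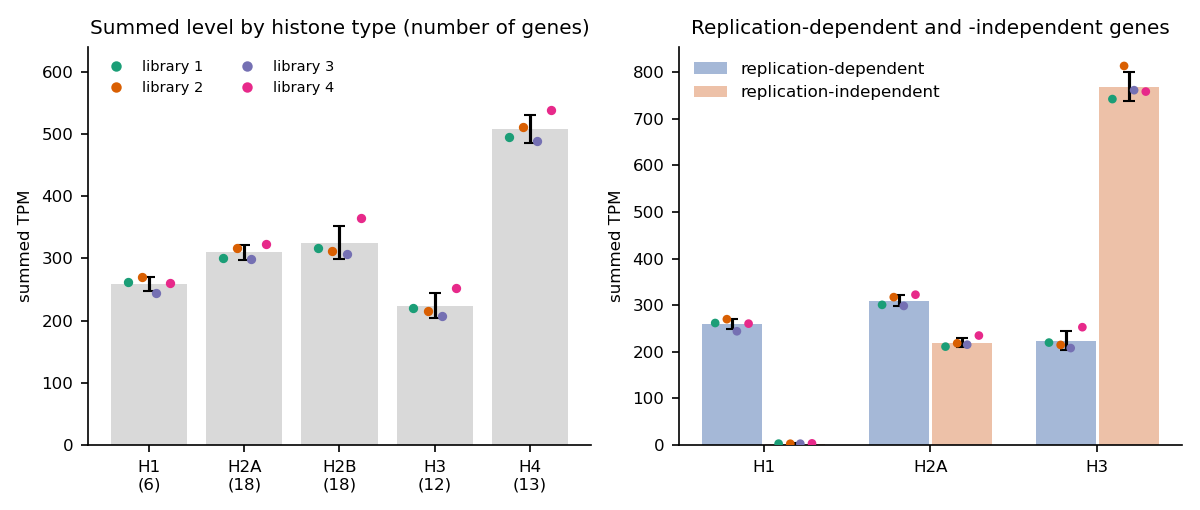
Left, summed TPM of the members by histone type, with the number of genes in brackets. Right, summed TPM of replication-dependent members beside replication-independent genes of H1, H2A and H3. Bars are means, error bars SDs and points the 4 libraries, and H4 (489 to 538 TPM) lies above every other type in each library.

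Of the clusters, Hist1 held 81.8% ± 0.55 of the family's summed level with 54 genes, and Hist2 16.7% ± 0.45 with 10. The 2 Hist3 genes held 1.14% ± 0.084 and Hist4h4 0.408% ± 0.031. All 6 H1 genes lie in Hist1. H2A was the type with the largest part outside Hist1, since the 4 H2A genes of Hist2 held 147 ± 8.77 TPM beside 150 ± 8.62 TPM for the 13 of Hist1.

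Among linker histones, Hist1h1c, which encodes H1.2, had the highest level of the family in the first quantification. It was at 195, 209, 192 and 189 TPM in libraries 1 to 4, a mean of 196 ± 8.72 (SD, n = 4), and took 4692 counts per library on average. The gene (ENSMUSG00000036181.2) lies at chr13:23738808-23740367 on the plus strand, and 95% of the windows of its transcript, each about 100 bases long, occur in no other gene. The 4 values lay close together, and Hist1h1c made up 75.7% ± 2.73 of the H1 level. Hist1h1e, which encodes H1.4, followed at 44.5, 43.2, 34.8 and 47.1 TPM, with library 3 the lowest. The model of Hist1h1e overlaps exons of Hist1h2be and Gm11398 on the same strand, and 75.5% of its windows are unique. Hist1h1a (9.44 ± 1.75 TPM), Hist1h1b (8.17 ± 1.38 TPM) and Hist1h1d (2.91 ± 0.34 TPM) were lower. The testis H1 gene Hist1h1t had 1 count in library 3 and none in the others, where 3 counts would give 0.209 to 0.253 TPM. Hist1h1a and Hist1h1b overlapped in range, and Hist1h1d was below both in every library.

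Within each library Hist1h1c was higher than Hist1h1e, with log2((TPM + 1)/(TPM + 1)) values of 2.10, 2.25, 2.43 and 1.98 and a mean of 2.19 ± 0.19. It was also higher than H1f0, the H1.0 gene of non-dividing cells, with a mean log2 ratio of 5.75 ± 0.23. A two-sided exact permutation test that flips signs within the 4 libraries gave p = 0.13 for both, which is the smallest p that 4 libraries allow, and the value adjusted over the 4 ratios tested was 0.13. The direction was the same in 4 of 4 libraries for each. The model of Hist1h1d is 7425 bases long, and its 347 counts on average become 8.72 TPM when the length is taken up to the stem-loop. Its coding part ends only at base 2491, so the length up to the stem-loop was still 2541 bases. With lengths up to the stem-loop, Hist1h1c comes to 462 TPM and Hist1h1e to 115 TPM.

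Among H2A genes, Hist2h2aa2 had the highest level, at 108, 130, 123 and 124 TPM (mean 121 ± 9.17, SD, n = 4). The gene lies at chr3:96239749-96240276 on the minus strand. None of its windows is unique: all occur in Hist2h2aa1, its near-identical partner at chr3:96245497-96246082. Hist2h2aa1 was given 6.67, 0, 0 and 5.58 TPM by the first quantification and 121 TPM on average by the second, which gave Hist2h2aa2 69.3 TPM. Gm20634 holds all windows of Hist2h2aa2 and 88.3% of those of Hist2h2aa1, and it also holds those of Hist2h3c1, which shares none with the pair and had no count. Summed with Gm20634 and Hist2h3c1, the pair had 64.1 ± 2.88 CPM (counts scaled to equal library totals) in the first and 60.05 ± 2.82 CPM in the second table, so the sum differed less than the single genes.

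Hist1h2ao was second among H2A genes at 50.9, 52.5, 35.2 and 64.9 TPM, and 92.6% of its windows occur in Hist1h2ap (10.5 ± 5.14 TPM). Hist2h2ac, with 94.0% of windows unique, was at 17.6, 19.9, 23.2 and 22.2 TPM. Hist3h2a (70.2% unique) was at 13.0 ± 1.60 TPM, Hist1h2ak (89.8%) at 11.2 ± 0.95 TPM, Hist1h2ac (92.1%) at 3.52 ± 0.34 TPM, Hist1h2ae (69.4%) at 3.48 ± 0.36 TPM and Hist2h2ab (98.8%) at 1.70 ± 0.23 TPM. The coefficients of variation of these 6 genes ran from 8.46% (Hist1h2ak) to 13.7% (Hist2h2ab), and that of Hist2h2aa2, which has no unique window, was lower at 7.57%. The remaining genes, each with under 50% of windows unique, were Hist1h2ab (17.9 ± 3.46), Hist1h2ai (17.0 ± 5.07), Hist1h2ag (13.5 ± 4.52), Hist1h2af (9.67 ± 2.86), Hist1h2ah (6.91 ± 3.84), Hist1h2an (3.63 ± 1.83) and Hist1h2ad (2.06 ± 2.09 TPM). Their coefficients of variation ran from 19.3% (Hist1h2ab) to 102% (Hist1h2ad).

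Among H2B genes, Hist2h2bb led in the first quantification at 65.8, 67.8, 61.9 and 88.6 TPM (mean 71.0 ± 11.96, SD, n = 4), with library 4 the highest. It lies at chr3:96269752-96270132 on the plus strand, and its model overlaps the exons of Gm42743 on the same strand, so reads of the overlap cannot be assigned to one of them by position. Hist1h2bg followed at 58.5, 61.9, 57.6 and 64.1 TPM (60.5 ± 3.02). In this quantification the ranges of Hist2h2bb and Hist1h2bg overlapped, while Hist2h2bb was the higher within each library. In the second, Hist2h2bb (52.0 ± 9.92 TPM) had a lower mean than Hist1h2bg (64.3 ± 6.77 TPM) and Hist1h2bf (71.8 ± 7.39 TPM). By count Hist2h2bb went from 20.4 CPM in the first to 7.50 CPM in the second.

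A middle group of H2B genes held 10 to 30 TPM. Hist1h2bq and Hist1h2br, which share 94.8% of the windows of Hist1h2bq, were at 28.7 ± 4.43 and 28.5 ± 4.19 TPM. Hist1h2bf was at 28.6 ± 1.78 TPM and Hist1h2bn at 20.7 ± 0.87 TPM. Hist1h2bk (16.4 ± 4.68), Hist1h2bl (15.5 ± 4.38), Hist1h2bj (13.1 ± 2.14), Hist1h2bp (10.4 ± 2.85) and Hist1h2bb (10.2 ± 0.92 TPM) followed. Below them came Hist3h2ba (5.54 ± 0.95), Hist1h2be (5.40 ± 0.72), Hist1h2bm (4.27 ± 1.1), Hist1h2bc (3.17 ± 0.91), Hist1h2bh (2.22 ± 0.17) and Hist2h2be (1.21 ± 0.16 TPM).

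Hist1h2bc and Hist2h2be were compared as 2 H2B genes whose long models held no stem-loop match. By TPM Hist1h2bc was higher in 4 of 4 libraries, with a mean log2((TPM + 1)/(TPM + 1)) of 0.90 ± 0.26 and an exact sign-flip permutation p of 0.13 (adjusted 0.13). At such low levels the added 1 TPM shrinks the ratio. The models are 1156 and 2620 bases long, and by count, which is not divided by length, the genes lay closer. Hist1h2bc had 45.3, 51.8, 48.6 and 70.2 counts and Hist2h2be 56, 51, 43 and 49, so Hist1h2bc was lower in library 1. The testis genes Hist1h2ba and Hist1h2aa had no count in any library, and 3 counts would give 0.597 to 0.722 TPM for the first and 0.585 to 0.707 TPM for the second.

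Among H3 genes, levels were spread more evenly than in H1. Hist1h3a was at 37.9, 42.6, 47.2 and 46.3 TPM, Hist1h3e at 38.8, 37.8, 38.1 and 41.4 TPM, and Hist1h3i at 30.6, 37.9, 30.1 and 33.3 TPM. The ranges of Hist1h3a and Hist1h3e overlapped, and Hist1h3a made up 19.5% ± 2.38 of the H3 level. Hist2h3b (31.5 ± 2.52), Hist1h3h (25.4 ± 12.2), Hist1h3f (21.6 ± 1.13) and Hist1h3b (15.2 ± 3.99 TPM) were next. Hist1h3c (5.17 ± 1.48), Hist1h3g (3.92 ± 1.00), Hist2h3c2 (3.52 ± 2.24) and Hist1h3d (2.05 ± 0.38 TPM) were low. Hist2h3c1 had no count, and since all of its windows occur in Gm20634, which overlaps it on the same strand, reads of these windows cannot be assigned to one of the genes.

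H4 had 3 of the 5 highest genes of the family in the first quantification. Hist1h4k was at 112, 103, 114 and 113 TPM (111 ± 5.03, SD, n = 4), from a model of 312 bases that ends with the coding part. Hist1h4h was at 82.3, 106, 88.9 and 97.3 TPM (93.6 ± 10.3), and Hist1h4m at 76.0, 80.3, 89.7 and 76.2 TPM (80.5 ± 6.40). Hist1h4k and Hist1h4h overlapped in range in library values (103 against 106 TPM at the edges), as did Hist1h4h and Hist1h4m. In the second quantification the order was Hist1h4h (259 ± 15.1), Hist1h4m (88.7 ± 6.16) and Hist1h4k (76.9 ± 7.22 TPM). By count Hist1h4k went from 24.0 CPM in the first to 8.60 CPM in the second. All H4 genes encode the same or almost the same protein, and 64.2% of the windows of Hist1h4k occur in Hist1h4a.

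Lower H4 genes included some with distinct sequence. Hist1h4d, whose windows are all unique, was at 43.8 ± 2.37 TPM and Hist1h4c at 38.5 ± 1.35 TPM. Hist1h4a (31.0 ± 4.74), Hist1h4f (29.0 ± 5.72), Hist1h4n (20.2 ± 12.3), Hist1h4i (19.9 ± 2.95), Hist2h4 (17.98 ± 1.08), Hist1h4b (11.6 ± 3.18), Hist4h4 (6.64 ± 0.59) and Hist1h4j (4.62 ± 0.85 TPM) completed the type. The order depends on model length as well as on the quantification, since the models of Hist1h4d, Hist2h4 and Hist4h4 run 770, 1257 and 2445 bases past the stem-loop. Taken up to the stem-loop, Hist1h4d comes to 170 TPM, Hist2h4 to 100.8 TPM and Hist4h4 to 57.7 TPM, and Hist1h4d then stands above Hist1h4k.

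Model length mattered across the family. The 18 members whose model runs over 200 bases past the stem-loop held 60.02% of the family's counts and 28.5% of its TPM. The 15 whose model ends within 5 bases of the coding end held 8.70% of counts and 20.6% of TPM. For Hist3h2a, whose model overlaps exons of Trim17 on the same strand, the level up to the stem-loop was 66.0 TPM. For Hist1h2ac it was 22.6 TPM. Where the reads lie along a model is not given by these tables, so neither length can be called the right one.

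H2A and H2B genes often stand head to head with a short stretch of DNA between their starts. There were 12 such pairs with starts at most 1000 bases apart, at distances of 176 to 306 bases, and the levels of the partners often differed. Hist2h2ac (20.7 ± 2.52 TPM) was 17.1-fold above Hist2h2be (1.21 ± 0.16 TPM). In the other direction, Hist1h2ae (3.48 ± 0.36 TPM) was at 0.057 of the level of Hist1h2bg (60.5 ± 3.02 TPM). For Hist2h2ac/Hist2h2be and Hist1h2ae/Hist1h2bg the libraries of the partners did not overlap. Hist1h2ac (3.52 ± 0.34) and Hist1h2bc (3.17 ± 0.91 TPM) overlapped, as did Hist1h2ag and Hist1h2bj, and Hist1h2ai and Hist1h2bl. Hist1h2aa and Hist1h2ba, the testis pair, had no count on either side. Model lengths differ within pairs: the model of Hist2h2be is 2620 bases long, and its level per base depends on that length.

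**Figure D3:**
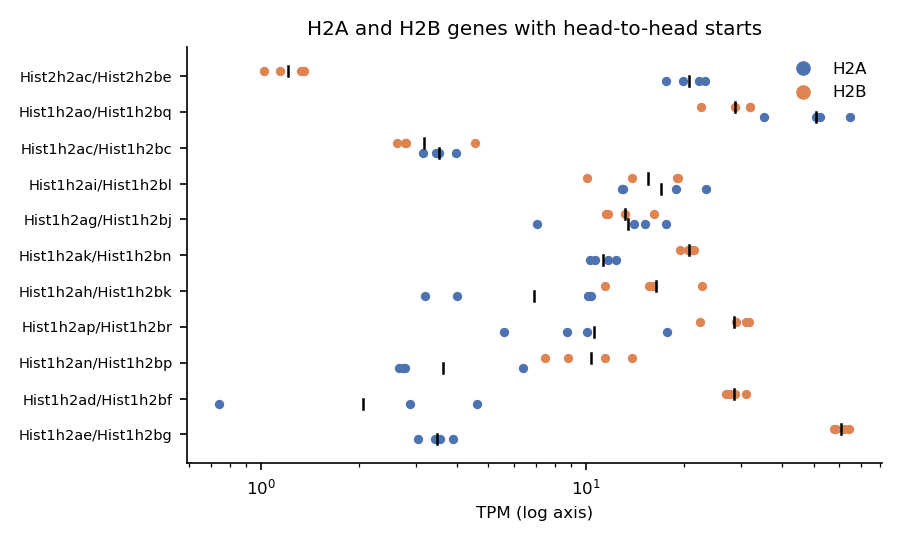
TPM (log axis) of the H2A gene (blue) and the H2B gene (orange) of 11 head-to-head pairs, with 1 point per library and black bars for means; the pair Hist1h2aa/Hist1h2ba has no count, and the value of 0 for Hist1h2ad in library 3 is not drawn. Hist2h2ac stands far to the right of Hist2h2be and Hist1h2ae far to the left of Hist1h2bg.

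The promoters were read from RefSeq windows of 250 bases before to 50 bases after a gene's start (GRCm38.p6), which were matched for 61 of 67 members by gene identifier. They are shown for Hist1h1c and Hist2h2bb, the highest gene of the family and the highest H2B gene in the first quantification. They are also shown for the pair Hist2h2ac/Hist2h2be, whose shared stretch is printed on the strand of Hist2h2ac. Only the 250 bases before the start are printed. Capitals mark every match on either strand to CCAAT, the box bound by NF-Y, to TATAAA, to the octamer ATTTGCAT, bound by Oct-1, or to AAACACA, the H1 box.
Hist1h1c, chr13:23738557-23738806, plus strand: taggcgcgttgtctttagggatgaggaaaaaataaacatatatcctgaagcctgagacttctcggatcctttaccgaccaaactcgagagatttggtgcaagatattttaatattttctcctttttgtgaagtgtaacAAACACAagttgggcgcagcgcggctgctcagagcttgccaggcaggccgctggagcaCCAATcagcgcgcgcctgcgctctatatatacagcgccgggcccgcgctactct
Hist2h2ac, chr3:96220881-96221130, minus strand: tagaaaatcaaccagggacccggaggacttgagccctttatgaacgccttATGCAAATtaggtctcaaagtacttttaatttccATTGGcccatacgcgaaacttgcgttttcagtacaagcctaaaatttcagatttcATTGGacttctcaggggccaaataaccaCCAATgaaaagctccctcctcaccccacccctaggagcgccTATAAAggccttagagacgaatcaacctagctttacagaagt
Hist2h2bb, chr3:96269450-96269699, plus strand: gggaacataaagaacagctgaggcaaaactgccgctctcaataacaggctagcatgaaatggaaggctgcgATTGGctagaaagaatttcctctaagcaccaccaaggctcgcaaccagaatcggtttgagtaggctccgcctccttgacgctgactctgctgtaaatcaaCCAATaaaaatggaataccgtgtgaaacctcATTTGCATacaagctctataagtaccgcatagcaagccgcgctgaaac

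Motif content followed histone type. CCAAT was present in all 5 H1, 18 H2A, 16 H2B and 10 H3 windows matched, and in 3 of 12 H4 windows, against 37.4% of 32851 windows of all genes. The octamer was present in 7 of 18 H2A and 6 of 16 H2B windows and in none of the H1, H3 and H4 windows, against 1.74% of all windows. H2A and H2B partners share part of their windows, so their matches are not separate. The H1 box was present in 4 of 5 H1 windows, 2 of 18 H2A and 2 of 16 H2B windows, against 7.18% of all. TATAAA was found in 34 of 61 members' windows, against 13.6% of all. In the Hist1h1c window the H1 box began 112 bases and CCAAT 54 bases before the start. In the Hist2h2bb window the octamer began 48 bases before the start. Members at or above 10 TPM held CCAAT in 30 of 37 windows and those below in 22 of 24.

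Variation between the 4 libraries was tested per gene over all genes with edgeR's goodness-of-fit test on rounded expected counts. Of 13118 genes tested, 183 were called (Benjamini-Hochberg adjusted p below 0.05, 1.4% of the genes), and of the 60 members tested 3 were called, in either direction. At an unadjusted p below 0.05 there were 9 members, against 4.6% of all genes tested. The median goodness-of-fit statistic of the members was 2.43, against 1.47 over all genes tested. The other 57 members tested, among them Hist1h1c, Hist1h4k and Hist1h2bg, did not pass. The filter on low counts left out 7 members: Hist1h1t, Hist1h2aa, Hist1h2ad, Hist1h2ba, Hist2h2aa1, Hist2h2ab and Hist2h3c1. Without it Hist2h2aa1 (adjusted p = 2.1e-11, edgeR) and Hist1h2ad (adjusted p = 0.00064, edgeR) were called as well. Of their windows 11.7% and 36.4% are unique.

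The called genes were Hist1h4n, Hist1h3h and Hist2h3c2. Hist1h4n was at 19.5, 19.4, 5.86 and 35.8 TPM (adjusted p = 1.4e-05, edgeR), low in library 3 and high in library 4. Hist1h3h was at 28.3, 11.4, 21.4 and 40.5 TPM (adjusted p = 0.0038, edgeR), low in library 2 and high in library 4. Hist2h3c2 was at 5.80, 1.69, 1.51 and 5.09 TPM (adjusted p = 0.0051, edgeR), high in libraries 1 and 4. Each lost its call when a single library was left out: Hist1h4n without library 3 (adjusted p = 1.0), Hist1h3h without library 2 (1.0), and Hist2h3c2 without library 1 (0.16) or library 3 (0.14). Without library 4, the library with the high B cell and erythroid marker levels, all 3 remained called. Over the settings tried on single genes, the adjusted p (edgeR) ran from 3.8e-12 to 1.0 for Hist1h4n, from 5.8e-07 to 1.0 for Hist1h3h and from 4.6e-08 to 0.16 for Hist2h3c2.

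All 3 called genes have close copies. Only 19.4% of the windows of Hist1h4n, 8.04% of those of Hist1h3h and 38.5% of those of Hist2h3c2 are unique, and 80.6% of the windows of Hist1h4n occur in Hist1h4m. Summed with Hist1h4m, Hist1h4n gave 482, 542, 484 and 510 counts, where Hist1h4n alone was at 106, 113, 32.2 and 173. The set of Hist1h3b, Hist1h3d, Hist1h3h and Hist1h3i gave 467, 488, 382 and 508 counts. The set of Hist2h3c2 with Hist2h3b, Hist2h3c1, Hist2h2aa1, Hist2h2aa2 and Gm20634 gave 1243, 1341, 1278 and 1235 counts. Where Hist1h4n was low, in library 3, its partner Hist1h4m was highest.

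Genes were linked when at least 50% of the windows of either gene occur in the other, and links were chained into sets. The sets therefore also hold genes with mostly unique windows, such as Hist1h4j (81.2% unique), Hist1h3d (79.6%) and Hist1h2ae (69.4%). The sums say little about those genes one by one. None of the 40 sets and single members was called by edgeR when the sets were summed before the same test. Of the 40, 2 had an unadjusted p below 0.05 in it. These were the H3 set (adjusted p = 1.0) and Hist1h1e (adjusted p = 0.46). With sets linked only at 80% of windows, Hist1h3h (adjusted p = 0.0036, edgeR) and Hist2h3c2 (adjusted p = 0.0050, edgeR) stayed outside a set and were called, and Hist1h4n with Hist1h4m was not (adjusted 1.0). For Hist2h3c2 the sum at 50% of windows says little about the gene itself, which held 51.7 counts on average. Hist2h2aa2, in the same set, held 848, shares no window with Hist2h3c2 and is joined to it through Gm20634. The summing into sets was added after the calls had been seen.

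**Figure D4:**
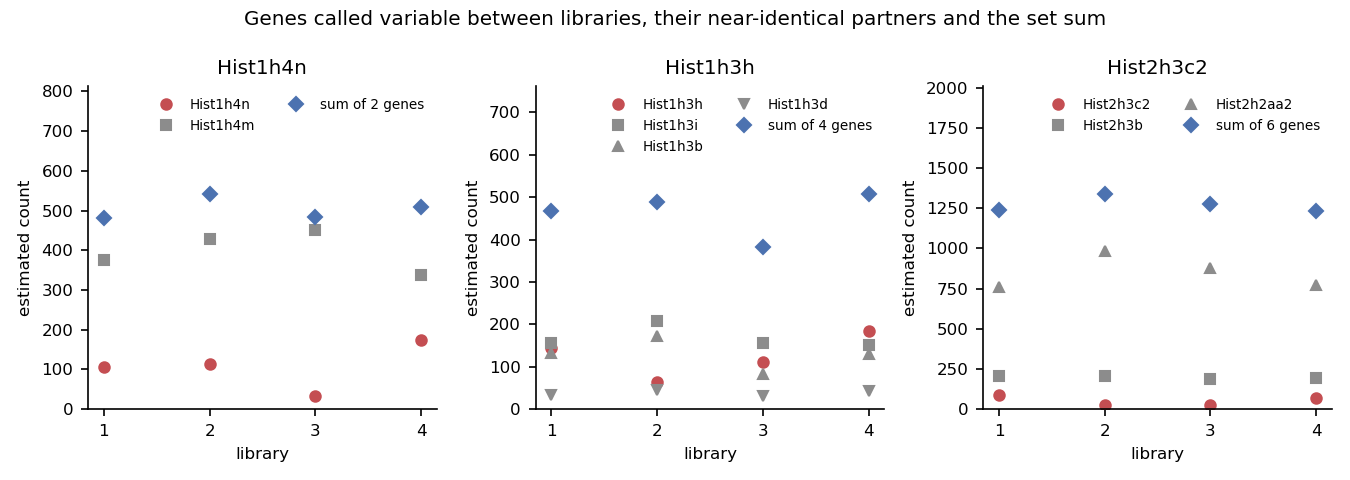
Estimated counts per library (1 to 4) of the 3 called genes (red), of other genes of the same set (grey) and of the whole set linked at 50% of windows (blue diamonds). The set sums vary less than the called genes: Hist1h4n runs from 32.2 to 173 counts while its sum with Hist1h4m runs from 482 to 542.

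Spread between libraries was larger for members with little unique sequence. Of the 61 members at or above 1 TPM in every library, the 20 with at least 80% unique windows had a median coefficient of variation of 12.6%, the 19 with 50% to 80% had 12.6%, and the 22 below 50% had 27.2%. The groups had median counts of 137, 168 and 108 per gene. This is a description of these genes, with no test.

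The second deposited quantification gave other values for many members. Of 63 members at or above 1 TPM on average in either table, 18 differed over 2-fold in TPM and 29 in counts scaled to the library total. By count the 2 tables were over 2-fold apart for 17 of the 22 members with under 50% unique windows, and for 5 of the 20 with at least 80%. Members with distinct sequence differed as well: Hist1h4d, whose windows are all unique, had 46.5 CPM in the first and 19.5 CPM in the second table, and Hist1h4f, with 82.1% of windows unique, had 8.63 and 0.852 CPM. Hist1h2ao went from 50.9 to 0.53 TPM and Hist1h2ap from 10.5 to 73.3 TPM. Hist1h2ai went from 17.0 to 78.2 TPM, Hist1h2ad from 2.06 to 14.9 TPM and Hist1h2ak from 11.2 to 26.5 TPM. Hist1h4h went from 93.6 to 259 TPM, Hist1h4f from 29.0 to 5.67 TPM and Hist1h4n from 20.2 to 9.81 TPM. Among H2B genes Hist1h2bb went from 10.2 to 42.4, Hist1h2bf from 28.6 to 71.8, Hist1h2be from 5.40 to 13.6, Hist1h2bc from 3.17 to 8.86 and Hist1h2bk from 16.4 to 5.67 TPM. Among H3 genes Hist1h3b went from 15.2 to 62.6, Hist1h3c from 5.17 to 12.1 and Hist2h3c2 from 3.52 to 12.05 TPM, and among H2A genes Hist2h2ab went from 1.70 to 4.26 TPM. Hist1h1c had 196 and 177 TPM, and in the second table it stood below Hist1h4h.

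Summed over the sets linked at 50% of windows, the tables lay within 2-fold of each other for 4 of 6 sets. The H4 set of Hist1h4a, Hist1h4b, Hist1h4h, Hist1h4j and Hist1h4k had 79.97 ± 4.29 and 76.6 ± 3.30 CPM in the first and second table (SD, n = 4). The Hist2 set had 79.9 ± 3.44 and 75.6 ± 2.86, the H2A set of 11 genes 50.4 ± 3.77 and 42.5 ± 3.24, and the H3 set 29.0 ± 4.78 and 28.8 ± 3.09. The exceptions were Hist1h4m with Hist1h4n (31.6 ± 2.40 and 15.5 ± 1.18) and Hist1h2bk with Hist1h2bq and Hist1h2br (23.6 ± 0.89 and 7.0 ± 2.25).

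**Figure D5:**
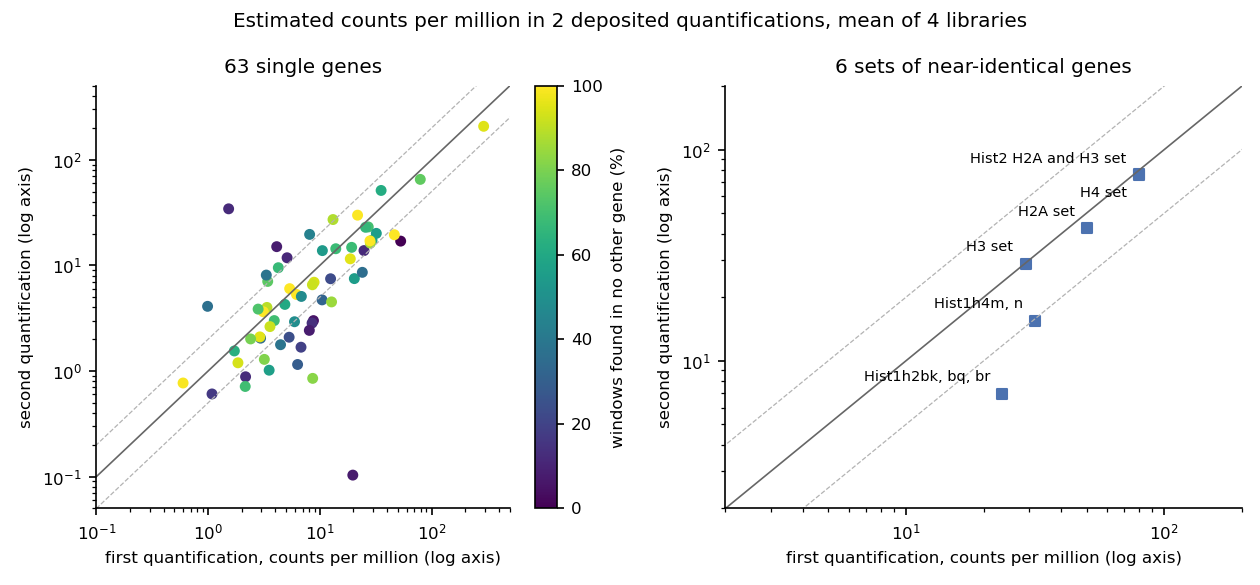
Mean CPM of 4 libraries in the first (x) and second (y) deposited quantification, on log axes. Left, 63 single members coloured by the percent of unique windows, and right, the 6 sets linked at 50% of windows. The solid line marks equal values and the dashed lines 2-fold differences. Dark points scatter most, with Hist1h2ao at the bottom, and 4 of the 6 sets lie close to the line.

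Most members have 1 annotated transcript. Hist1h2be has 3, and the first quantification gave 80.3% ± 27.2 of it to Hist1h2be-201 (96.5%, 39.6%, 92.5% and 92.6% in libraries 1 to 4), and in library 2 55.7% went to Hist1h2be-202. The second quantification gave 16.5% to Hist1h2be-201 and 78.7% to Hist1h2be-202, so the split is not settled by these files. Hist1h2bq and Hist1h2br were given almost wholly to their intron-less forms of 381 bases, Hist1h2bq-201 (98.4% ± 0.88) and Hist1h2br-202 (99.2% ± 0.72).

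The replication-independent histones showed another balance of types. H3f3b and H3f3a, which both encode H3.3, were at 512 ± 27.3 and 220 ± 4.16 TPM (SD, n = 4), each above every member of the family by deposited TPM. With the length to the stem-loop end, Hist1h1c came to 462 TPM, above H3f3a. H3f3b was higher than H3f3a in 4 of 4 libraries (mean log2 ratio 1.21 ± 0.073, exact sign-flip permutation p = 0.13, adjusted 0.13). With Cenpa, the centromeric H3 (37.8 ± 2.39 TPM), they summed to 769 ± 30.8 TPM, so that the 12 replication-dependent H3 genes made up 22.5% ± 1.83 of the H3 message measured. For H2A the corresponding share was 58.5% ± 0.63, beside macroH2A1 (H2afy, 102 ± 6.39), H2A.Z (H2afz, 60.5 ± 5.35), H2afj (24.2 ± 1.59), H2afv (20.0 ± 3.13) and H2afx (12.7 ± 1.17 TPM). H2afx, which marks DNA breaks when phosphorylated, has a stem-loop match in its transcript. H2afy2 had no count. For H1 the share was 98.8% ± 0.14, since H1f0 was at 2.68 ± 0.49 and H1fx at 0.38 ± 0.16 TPM.

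Genes of the histone message pathway were present at moderate levels. Of 23 genes for transcription and 3′ end processing, 20 were at or above 1 TPM in every library. The highest were Srrt, a cap-linked processing factor (147 ± 1.83), the Sm proteins Snrpg (84.0 ± 5.96), Snrpb (67.3 ± 1.37), Snrpe (67.3 ± 2.89) and Snrpd3 (41.1 ± 2.03), and the cleavage scaffold Sympk (36.8 ± 2.31 TPM). Slbp, the stem-loop binder, was at 28.1, 30.8, 27.9 and 31.5 TPM. The U7-specific proteins Lsm10 (4.76 ± 0.76) and Lsm11 (2.60 ± 0.24 TPM) and Npat, which switches on histone genes in S phase (6.47 ± 0.76 TPM), were lower. Slbp, Lsm10, Lsm11 and Npat were named after their values had been seen.

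All 6 decay genes found were at or above 1 TPM in every library: Exosc10 (37.0 ± 2.11), Upf1 (28.0 ± 1.45), Xrn1 (20.9 ± 1.18), the stem-loop exonuclease Eri1 (19.6 ± 1.77), Dcp2 (12.1 ± 0.36) and Lsm1 (6.62 ± 0.55 TPM). Of 16 histone chaperones 15 were, led by Npm1 (266 ± 3.68), Atrx (74.8 ± 7.67), Nap1l1 (58.7 ± 3.57), Ssrp1 (55.6 ± 2.70), Rbbp4 (47.3 ± 2.55) and Rbbp7 (37.9 ± 2.37 TPM). Of 21 genes of S phase and division 17 were, with Pcna, the sliding clamp of DNA polymerase, at 80.6 ± 11.3 TPM. The replication licensing genes Mcm4 (29.1 ± 3.48), Cdt1 (24.5 ± 2.22), Mcm7 (22.8 ± 2.16), Mcm2 (21.5 ± 2.22) and Mcm3 (21.3 ± 0.98 TPM) followed. Low in this list were Mki67 (2.54 ± 0.34), Rrm2 (1.805 ± 0.43), Tk1 (1.48 ± 0.40), Cdk1 (1.26 ± 0.36), Ccna2 (0.93 ± 0.32) and Ccnb1 (0.91 ± 0.24 TPM). These low genes were named after their values had been seen. The median gene of this list had 3.71 TPM, beside 13.1 TPM for the median histone member.

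None of these lists held a gene called variable between libraries by edgeR, with 9 replication-independent, 22 processing, 6 decay, 16 chaperone and 21 S phase genes tested. At an unadjusted p below 0.05 there was 1 S phase gene and none in the other 4 lists, and DESeq2 marked none as a dispersion outlier. In the same test 7 of 8 B cell, 3 of 4 erythroid and 3 of 4 neutrophil markers were called.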

How the data were processed

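The deposited expected counts are the authors' estimates per gene, not normalized. The deposited TPM values scale them by effective length (length less 100 bases) to 1 total over all targets. The deposited percent values give a transcript's share of its gene. Values refer to mm10 and GENCODE M21, per the text deposited with each library, and which tools aligned and quantified the reads is not given in the sources used here. A second transcript quantification was summed per gene. It has effective lengths of its own, and their part in the TPM differences was not tested. Each library was quantified alone. The reference is C57BL/6, so reads that differ at CAST/EiJ variants may be lost or go to a similar gene.

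Members, lists and ratios were chosen with earlier results of these data known. Named genes were members with a mean of at least 1 TPM, all replication-independent histones, and the 6 highest of each further list or any called. In the decay list, Zcchc6 and Zcchc11 matched no symbol. Counts were rounded, filtered (filterByExpr), TMM-scaled and tested with edgeR 4.0.16 (intercept only, trended dispersion, goodness of fit, Benjamini-Hochberg at 0.05) in R 4.3.3, with DESeq2 1.42.0 as an alternative, after a test on simulated data. Sequence shared between genes was counted as windows of about 100 bases in M21 transcripts on the sense strand. A member without counts was set against 3 counts, which covers counting error only. Python 3.11.15, pandas 2.3.3 and matplotlib 3.10.9 were used.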

Additional observations from a re-analysis of the deposited data

Results flagged for a closer look

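Of 148 values (members and listed genes at or above 1 TPM on average, sums by type and list sums), 10 had 1 library far from the other 3 (6.76%), where chance alone flags about 1 in 20. Among members, Hist1h2an was at 6.38 TPM in library 4 and 2.66 to 2.76 TPM in the others. Hist1h2bc was at 4.54 TPM in library 4 and 2.61 to 2.78 TPM in the others. Hist1h4j was at 3.35 TPM in library 3 and 4.97 to 5.19 TPM in the others. None of these 3 members passed the goodness-of-fit test.

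Among related genes, H2afj was at 21.9 TPM in library 2 (24.8 to 25.3 in the others) and Snrpe at 71.6 TPM in library 2 (65.8 to 65.9). Rrm1, a subunit of ribonucleotide reductase, was at 20.9 TPM in library 3 (14.5 to 15.2), and the H3.3 chaperone gene Hira at 37.5 TPM in library 3 (29.1 to 30.5). Of the marker sums, B cell markers stood at 348 TPM and erythroid markers at 636 TPM in library 4, and neutrophil markers at 38 TPM in library 2.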

How the results depend on the processing

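No paired analysis was possible because there is 1 group. The summed level of the family (1627 TPM) came to 2014 TPM in the second quantification, 1733 with annotated length, 2573 with the length to the stem-loop end and 4580 when rescaled to protein-coding genes. The median member came to 16.7 TPM with the length to the stem-loop end and 37.9 TPM rescaled to protein-coding genes. The length to the stem-loop end was used only for members with a match, and those values were not rescaled to 1 total. In the second quantification the shares were 12.5% H1, 24.6% H2A, 18.6% H2B, 14.6% H3 and 29.6% H4. With annotated length they were 18.2% H1, 19.1% H2B and 30.04% H4, and to the stem-loop end 23.5% H1, 15.7% H2A, 15.02% H2B, 11.1% H3 and 34.7% H4. H4 led in each, and in the second quantification H1 was lowest in place of H3. Members called variable numbered 5 without a count filter or with 10 counts in 1 library, 6 with a common dispersion, 0 with sets at 50% of windows, and 1 to 3 when a library was left out. By scaled counts 29 members differed over 2-fold between tables, against 18 by TPM, and Hist1h2be-201 took 16.5% in the second table. Each log2 ratio kept its sign under every pseudocount, table and left-out library tried. The causes were not tested. Depth limits the members with few counts, and 4 libraries set the smallest sign-flip p.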
